A study of Homo sapiens with 44 samples.

Results

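Cytosolic ribosomal protein genes were followed across castration-resistant prostate tumors treated with vehicle or with either of a pair of androgen receptor antagonists. They were taken by symbol: RPL or RPS followed by a number and at most a letter A, X or L, together with RPLP0, RPLP1, RPLP2 and RPSA. Of the 23368 gene rows of the count table, 82 met that rule. By role they were 43 proteins of the large subunit, 3 of its stalk, 31 of the small subunit, and 5 paralogs known for tissue-restricted or inducible expression (RPL3L, RPL10L, RPL39L and RPS27L among them). The rule used no measured value.

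The cytosolic ribosome translates nuclear-encoded mRNA. Each subunit is an assembly of ribosomal RNA and many proteins that are needed in near-equal amounts, so their genes are transcribed strongly in growing cells, and their mRNAs are short. Most of these mRNAs begin with a C followed by a run of pyrimidines, the 5′ terminal oligopyrimidine (TOP) motif, through which the mTOR kinase and LARP1 control their translation together. These genes have also left many processed pseudogenes, reverse-transcribed copies that resemble the parent mRNA and make short reads hard to place.

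The tumors were xenografts of VCaP at passage p61, an established human prostate cancer line with an amplified androgen receptor gene and the TMPRSS2-ERG fusion, grown in athymic nude mice (Foxn1nu). All mice, the vehicle group included, were castrated, and treatment began after serum PSA had come back to where it stood before castration. Vehicle (15 tumors), enzalutamide (14 tumors) or ARN-509, also called apalutamide (15 tumors), was given by daily gavage for 4 weeks, both drugs at 20 mg/kg/day. The library enzalutamide 4 held 80142 counts and was left out by the rule, so 13 enzalutamide tumors and 43 libraries in all were compared. The model is 1 cell line in a host without T cells, and the tumor also holds mouse cells whose reads may have been counted in human genes. Every library was treated as coming from its own tumor and mouse.

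In units of 1e6 counts, the depth of vehicle libraries ran from 4.19 to 25.8 (median 5.71), that of enzalutamide libraries from 4.72 to 16.9 (8.62) and that of ARN-509 libraries from 3.38 to 30.1 (7.49). All 12 prostate tumor cell markers passed the filter on low counts, and their summed level had medians of 11810, 16741 and 16945 CPM (counts in 1e6 of the scaled library) in the vehicle, enzalutamide and ARN-509 arms. Of the markers of other cells, 3 of 10 fibroblast, 1 of 7 endothelial, 1 of 8 leukocyte and 0 of 5 erythrocyte genes passed it. Their summed levels had medians of 28.2, 21.4 and 20.0 CPM for fibroblasts, 50.4, 44.4 and 36.6 CPM for endothelium (nearly all from ENG), 6.34, 7.44 and 5.66 CPM for leukocytes and 1.06, 1.11 and 1.16 CPM for erythrocytes, in the same order of arms. The T cell gene CD3E had 0 counts. These rows are of human genes, while the host's cells are from the mouse. The levels thus do not measure how many such cells a tumor held. The part of these cells in the results was not tested.

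The annotated start of each gene shows the TOP motif that most of these genes share. Windows of 30 bases around the start are given 5′ to 3′ for members that the results turn on, from RefSeq (GRCh38.p14), with 15 bases on each side of the boundary before the first transcribed base. Capitals mark the run of C and T that covers the first transcribed base; a window without capitals has none.
RPLP0: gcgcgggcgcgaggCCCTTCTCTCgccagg
RPLP1: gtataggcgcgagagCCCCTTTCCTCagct
RPL36: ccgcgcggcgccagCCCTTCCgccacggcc
RPL36A: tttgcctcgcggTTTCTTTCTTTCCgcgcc
RPS3: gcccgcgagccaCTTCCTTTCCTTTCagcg
RPS6: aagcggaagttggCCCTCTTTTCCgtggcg
RPL11: cgcctcctggcccataaggccctcggccgg
RPL10: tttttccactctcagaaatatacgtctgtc
RPS27L: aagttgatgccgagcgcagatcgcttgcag

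The first 6 start with C and a run of pyrimidines, and the last 3 do not at the annotated position. The windows lie at chr12:120201097-120201126 on the minus strand for RPLP0, chr15:69452803-69452832 on the plus strand for RPLP1, chr19:5690280-5690309 on the plus strand for RPL36, and chrX:101390996-101391025 on the plus strand for RPL36A. Those of RPS3 (chr11:75399503-75399532, plus), RPS6 (chr9:19380222-19380251, minus), RPL11 (chr1:23691764-23691793, plus), RPL10 (chrX:154398050-154398079, plus) and RPS27L (chr15:63157463-63157492, minus) complete the set. Each spans the last bases of the promoter and the first bases of exon 1.

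Of the 82 members, 64 matched an entry of the promoter table. A start with C and at least 5 pyrimidines in a row was found in 42 of the 64 (65.6%), against 4.04% of all 27305 promoters of the same length. A run of at least 5 pyrimidines lay over the start in 44 members (68.8%), against 9.80% of all promoters. The letters CGGAAG, the core that ETS factors such as ERG bind, stood on either strand of the 300-base promoter in 40 members (62.5%), against 19.9% of all. Their reverse complement begins with pyrimidines and can overlap the run at the start. AAGATGG, a core of YY1 sites, was found in 8 members (12.5%) against 6.06% of all, the E-box CACGTG in 3 (4.69%) against 7.43%, TATAAA in 6 (9.38%) against 11.95%, and AGAACA, 1 of the paired repeats of an androgen response element, in 9 (14.1%) against 14.9%. A match describes letters in this window and is not a bound site. RPL5, RPL7, RPL8, RPL23, RPL23A, RPL30, RPL37, RPL3L, RPL39L, RPS2, RPS15A and RPS20 were among the 18 members with no entry.

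Ribosomal protein genes made up a large share of every library. In vehicle tumors they held from 8.39% (vehicle 10) to 16.4% (vehicle 8) of all counts, with a median of 12.3%. The share ran from 9.96% to 14.5% under enzalutamide, with a median of 12.4%. Under ARN-509 it ran from 8.04% to 12.8%, with a median of 10.7%. The 3 ranges overlapped, and without vehicle 8 the highest vehicle share was 14.1%. In bulk tissue, fewer cells of a type and less RNA per cell cannot be told apart.

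**Figure D1:**
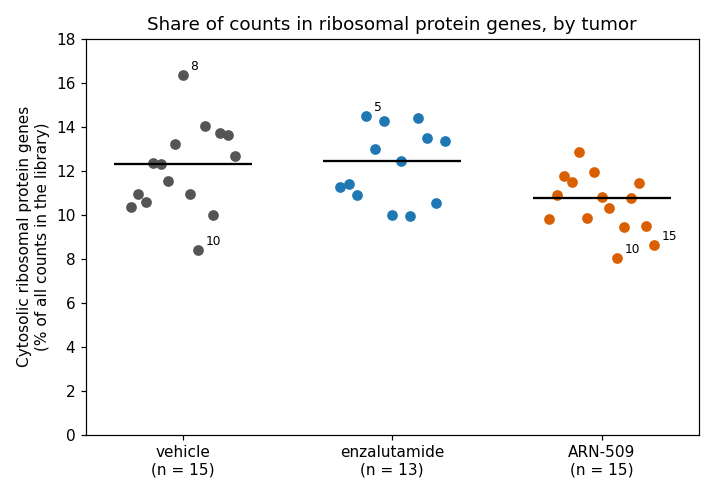
Share of all counts in the 82 cytosolic ribosomal protein genes (%, vertical axis) in each tumor, by arm. Points are tumors, horizontal lines are medians (12.3%, 12.4% and 10.7%), and the numbers mark replicates named in the text; ARN-509 has the lowest median, and its range overlaps the ranges of both other arms.

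Of the 82 members, 76 had enough counts to be tested among 13520 genes. The paralogs RPL3L of striated muscle (5 counts over the 43 libraries), RPL10L of the testis (42) and RPL39L (3) were among the 6 members that fell under the filter. RPL21, with 28 counts, fell under it too. RPS27L, a paralog of RPS27 that p53 can induce, was the tested member of its class.

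Levels between genes were compared as CPM divided by transcript length in kilobases. Among tested members of the small subunit RPS26 was lowest at 6.45 CPM per kb, and RPS19 stood among the highest at 6593. For those of the large subunit levels ran from 20.1 for RPL36A to 5342 for RPL30, and in the stalk from 1824 for RPLP2 to 5848 for RPLP1. Most members lay near the top, with medians of 1865 CPM per kb in the small and 1830 in the large subunit, and 44 of the 76 averaged at least 1000 CPM. A smaller number lay far lower, among them RPS10 at 15.0, RPS28 at 15.2, RPL17 at 54.6 and RPS27L at 56.0 CPM per kb.

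In GENCODE v29, 1133 pseudogenes are named after the members. At least 1 was named after each of 76 members, 16 members had at least 20, the median was 8.5, and 6 had none, among them RPL10L, RPL28, RPL39L, RPL3L and RPS27L. RPL23A had 91, RPSA 74, RPL21 66, RPL7 61 and RPL12 50. Across 81 members with a length, level per kilobase and number of copies had a Spearman rho of -0.23, a description over genes that share libraries and depth. RPL21, with 28 counts, and RPS26, with 30 copies, were among the low members, but RPL23A with the most copies stood at 1045 CPM per kb.

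Pseudogene rows were counted too: 28 were in the table, 14 passed the filter, and together they held 1.28% as many counts as the members. RPSAP58 had 550404 counts over the 43 libraries, against 251128 for its parent RPSA, which encodes a small-subunit protein also known as the laminin receptor. RPL23P8 (25801), RPL19P12 (7252) and RPL32P3 (5163) came next. Members with such copies, RPSA first, are uncertain, since reads could be split between gene and copy or left uncounted. The read-through rows RPL17-C18ORF32, RPS10-NUDT3 and RPL36A-HNRNPH2, which span RPL17, RPS10 and RPL36A, held 2, 2 and 0 counts, and whether the counter dropped reads shared with them was not tested.

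**Figure D2:**
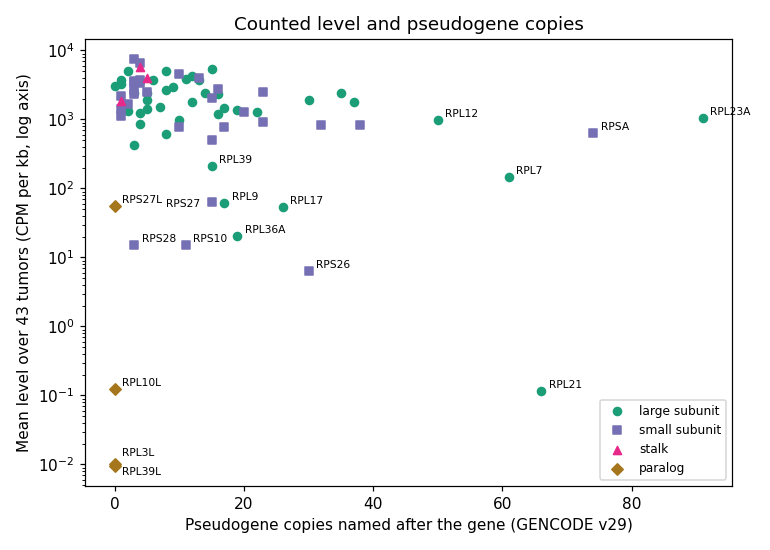
Mean level over 43 tumors (CPM per kb, log axis) against the number of pseudogenes named after the gene in GENCODE v29, for 80 members with a length and at least 1 count; marker shape and color give the role. Of the 80 members, 54 lie above 1000 CPM per kb, against 1 of the 5 with at least 50 copies, and the labelled low members include RPL21 (66 copies), RPS26 (30) and RPL36A (19).

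Enzalutamide was compared with vehicle first. No member passed the test: 0 of 76 had an adjusted p under 0.05 in edgeR's quasi-likelihood test with Benjamini-Hochberg adjustment over all tested genes, while 10.8% of all genes did (5.1% higher and 5.67% lower). At an unadjusted p under 0.05 there was 1 member, RPL12, against 3266 of all 13520 tested genes. DESeq2 and limma called 0 members each, with 12% and 18.8% of all genes called. The median log2 fold change was 0.006, with values from -0.12 (RPS12) to 0.22 (RPL12), beside a median of -0.004 over all genes. The 95% intervals bound the differences between -0.37 (RPS10, a change of -22.5%) and 0.52 (RPL39, 43.2%).

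RPL12, a large-subunit protein at the base of the stalk, ran from 417 to 721 CPM in vehicle tumors with a median of 486. Under enzalutamide it ran from 466 to 766 CPM with a median of 647. These ranges overlapped, and the log2 difference was 0.22 ± 0.09 (SE, edgeR adjusted p = 0.123). With library totals in place of TMM scaling, RPL12 was the 1 member called, with 10.6% of all genes called. The next smallest p-values belonged to RPL36A (0.18 ± 0.09, adjusted p = 0.208), RPL39, a small protein lining the exit tunnel (0.22 ± 0.15, adjusted p = 0.376), RPS27L (0.13 ± 0.09, adjusted p = 0.393), RPL6 (0.12 ± 0.09), RPS28 (0.17 ± 0.14), RPL41 (-0.12 ± 0.11) and RPS27 (0.11 ± 0.10), all in edgeR's test.

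ARN-509 was then compared with the same vehicle tumors. Here 41 of 76 members were lower, 1 was higher and 34 did not pass, while 30.8% of all tested genes were called, 16.1% lower and 14.7% higher. The median log2 fold change of the members was -0.26, that is 16.6% lower, beside -0.001 over all genes, and 75 of 76 values were negative. The lowest value was -0.46 (RPS10). No member had a range under ARN-509 that lay apart from the vehicle range, and how often ranges lay apart among all tested genes was not counted. By role, 3 of 3 stalk genes fell (median -0.34), 19 of 42 large-subunit genes fell and 1 rose (median -0.23), 19 of 30 small-subunit genes fell (median -0.27), and RPS27L did not pass (-0.03 ± 0.09).

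The stalk proteins recruit the elongation factors to the ribosome. RPLP0, which anchors the stalk, ran from 2359 to 5359 CPM in vehicle tumors (median 3731), from 2990 to 4228 under enzalutamide (3430) and from 2353 to 3461 under ARN-509 (2805). The highest ARN-509 tumor lay below the vehicle median, and the log2 difference from vehicle was -0.30 ± 0.08 (edgeR adjusted p = 0.00369). RPLP1, which forms the stalk's flexible arm with RPLP2, had medians of 2832 CPM under vehicle (1801 to 5064), 2965 under enzalutamide (2026 to 3242) and 2147 under ARN-509 (1538 to 2927). The log2 difference was -0.37 ± 0.10 (adjusted p = 0.00602). RPLP2 had medians of 1199, 1300 and 1009 CPM and fell by 0.34 ± 0.11 (adjusted p = 0.014). With the dependence on GC content and length removed, as described further on, it was at -0.17 ± 0.08 and did not pass (adjusted p = 0.0862).

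In the large subunit, RPL36 had the smallest p of all members. It ran from 582 to 1367 CPM in vehicle tumors (median 836), from 587 to 1007 under enzalutamide (801) and from 485 to 776 under ARN-509 (593). The highest ARN-509 tumor lay below the vehicle median, and the log2 difference was -0.43 ± 0.10 (edgeR adjusted p = 0.000802). RPL5 and RPL11 form a particle with 5S ribosomal RNA that, when free of the ribosome, binds and inhibits MDM2. RPL11 ran from 2073 to 4328 CPM under vehicle (median 3008), from 2203 to 3731 under enzalutamide (2891) and from 1863 to 2838 under ARN-509 (2387), and fell by 0.35 ± 0.09 (adjusted p = 0.00223). RPL5 had medians of 2386, 2129 and 1931 CPM and fell by 0.30 ± 0.08 (adjusted p = 0.0036).

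Other large-subunit genes with small p-values were RPL19, which fell by 0.31 ± 0.08, and RPL8, a protein near the peptidyl transferase center, which fell by 0.32 ± 0.09. RPL10, which joins late in the assembly of the subunit, fell by 0.31 ± 0.09 (edgeR adjusted p = 0.0108). RPL22, known as a tumor suppressor in T cell leukemia, had medians of 893, 921 and 847 CPM and did not pass (-0.06 ± 0.07, 95% interval -0.20 to 0.07). RPL39 did not pass either (-0.05 ± 0.14), nor did RPL12 (-0.06 ± 0.09), RPL6 (-0.11 ± 0.09) or RPL15 (-0.08 ± 0.07).

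RPL36A was the 1 member that was higher under ARN-509. It was counted at 9.60 to 15.9 CPM in vehicle tumors (median 11.4), 11.5 to 17.9 CPM under enzalutamide (14.4) and 12.01 to 18.6 CPM under ARN-509 (14.5). Both drug arms had higher medians than vehicle with ranges that overlapped it, and the log2 difference under ARN-509 was 0.24 ± 0.09 (edgeR adjusted p = 0.0302). The call was lost without vehicle 8 (adjusted p = 0.0615). RPL36A is among the members with the fewest counts, with 5866 over the 43 libraries and 19 pseudogenes.

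In the small subunit, RPS15, an assembly-linked protein of the head, ran from 629 to 1725 CPM in vehicle tumors (median 986), from 738 to 1221 under enzalutamide (949) and from 596 to 936 under ARN-509 (751). Its log2 difference was -0.40 ± 0.10 (edgeR adjusted p = 0.00241), and the highest ARN-509 tumor again lay below the vehicle median. RPS6, whose phosphorylation by S6 kinases is the usual readout of mTOR activity, had medians of 4787, 4728 and 4093 CPM. It fell by 0.25 ± 0.09 (adjusted p = 0.0323) and did not pass in the fit without vehicle 8 (adjusted p = 0.0668). RPSA had medians of 636, 630 and 531 CPM and fell by 0.28 ± 0.09 (adjusted p = 0.014), and its pseudogene RPSAP58 was at -0.36 (adjusted p = 0.00585).

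RPS4X, an X-linked protein of the small subunit, had medians of 4165, 4078 and 3572 CPM and fell by 0.25 ± 0.08 (edgeR adjusted p = 0.0209). RPS10 ran from 6.54 to 21.4 CPM under vehicle (median 10.5), from 6.75 to 14.9 under enzalutamide (10.3) and from 3.85 to 11.97 under ARN-509 (7.73). It had the lowest fold change of the members (-0.46 ± 0.14, adjusted p = 0.00867) at one of their lowest levels. RPS27, with medians of 22.2, 25.4 and 21.6 CPM, did not pass (-0.12 ± 0.10), and RPS28 did not either (-0.27 ± 0.14, adjusted p = 0.135).

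**Figure D3:**
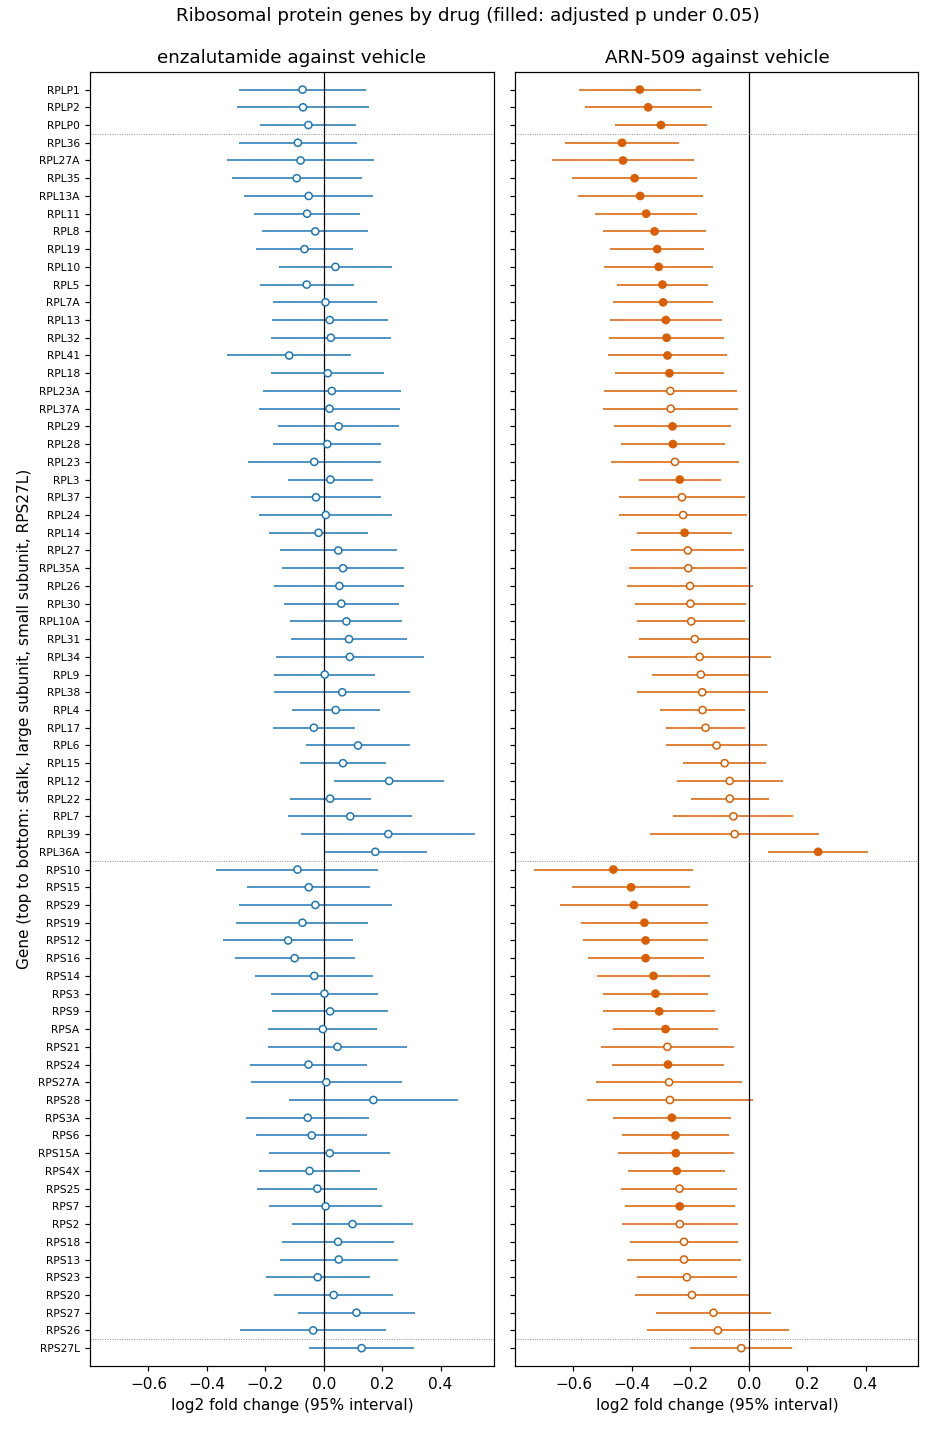
Log2 fold change against vehicle for 72 of the 76 tested members under enzalutamide (left) and ARN-509 (right), with 95% intervals; filled points have an edgeR adjusted p under 0.05. Under enzalutamide 0 points are filled and values lie on both sides of 0, while under ARN-509 38 are filled, RPL36A alone to the right of 0.

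Leaving out single tumors moved the number of members called under ARN-509. Vehicle 8 had the highest and vehicle 10 the lowest share of counts among vehicle tumors. The number lower was 28 without vehicle 8 (0 higher) and 59 without vehicle 10 (1 higher), with medians of -0.19 and -0.30. The share of all genes called is not given for either fit. These counts thus do not tell a change in the members from a change over all genes. Without both, 41 were lower and 1 higher, with 30.3% of all genes called. RPL11, RPL36, RPS15, RPL5, RPLP0, RPLP1, RPLP2 and RPS10 had adjusted p-values under 0.05 in each of the 43 fits that left out 1 tumor.

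The drugs were compared directly at the same dose and time. Enzalutamide tumors had higher levels than ARN-509 tumors for 42 of 76 members and lower levels for 0, with 26.8% of all tested genes called, 12.2% higher and 14.6% lower. The median log2 difference of the members was 0.27 (20.6% higher), beside 0.01 over all genes, and 75 of 76 were positive. The ranges of the arms overlapped for every member, which was not counted for the other genes. All 3 comparisons share arms: 30 members were both lower under ARN-509 than under vehicle and higher under enzalutamide than under ARN-509, and both statements rest on the same ARN-509 tumors.

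RPL10 had the smallest p between the drugs. It ran from 803 to 1473 CPM under enzalutamide (median 1000.4) and from 677 to 1047 CPM under ARN-509 (813), a log2 difference of 0.35 ± 0.10 (edgeR adjusted p = 0.00949). RPL3, which lies near the peptidyl transferase center, differed by 0.26 ± 0.07 (adjusted p = 0.00996), with medians of 4625 and 3879 CPM. RPS3, a protein of the mRNA entry channel, had medians of 3506 and 2856 CPM and differed by 0.32 ± 0.09 (adjusted p = 0.0112). RPL36 (0.35 ± 0.10), RPL7A (0.30 ± 0.09), RPS15 (0.35 ± 0.10), RPS9 (0.33 ± 0.10) and RPL11 (0.29 ± 0.09) followed. RPL36A was the 1 member with a negative value (-0.06 ± 0.09, adjusted p = 0.624). The number called was 21 without enzalutamide 5, with 21.4% of all genes called. It was 23 without enzalutamide 7 (21.7% of all genes) and 24 without enzalutamide 11 (20.9%). It was 27 without each of ARN-509 10 (23.7%), ARN-509 14 (20.7%) and ARN-509 15 (23.0%). It was 11, of which 7 were among the 42, after removal of the per-library dependence on GC content and length, with 10.3% of all genes called. It was 2, 4 or 5 when 3 other definitions of a gene's transcript were used for that removal, with 5.51%, 6.56% and 5.76% of all genes called. In the first of these fits RPL10 (0.21, adjusted p = 0.065), RPL3 (0.12), RPL36 (0.13), RPS15 (0.14) and RPS9 (0.14) did not pass. RPL11 (0.28, adjusted p = 0.0289), RPS3 (0.24, adjusted p = 0.04) and RPL7A (0.21, adjusted p = 0.0493) still passed in it, but RPL11 and RPL7A in none of the 3 with other definitions.

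The members moved together from tumor to tumor within an arm. After each gene's arm mean was subtracted on the log2 scale, a member's correlation with the mean of the other members over the 43 tumors had a median of 0.93, and 65 of 76 members reached 0.8. For the 13444 other tested genes the median correlation with the members' mean was -0.008. The first principal component took 81.0% of the members' variance within arms, and all 76 members had the same sign on it. These correlations are descriptions: the members share libraries, depth and scaling.

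Among the pairs with the highest correlation were RPL18 and RPS21 (0.98), RPL8 and RPS9 (0.98), RPS16 and RPS19 (0.98), and RPS19 and RPS21 (0.98), of which the last 2 join proteins within the small subunit and the others cross the subunits. The lowest correlations with the other members were those of RPL36A (0.02), RPS26 (0.50), RPS10 (0.59), RPL17 (0.63) and RPL41 (0.66), the gene of the shortest ribosomal protein. RPS26, RPS10, RPL36A and RPL17 are also among the members with the lowest counts, and the part of counting error in their correlations was not tested. RPS26 lines the exit of the mRNA, and its level had medians of 7.23, 6.98 and 7.34 CPM in the vehicle, enzalutamide and ARN-509 arms (ARN-509 against vehicle -0.11 ± 0.12, edgeR adjusted p = 0.522).

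**Figure D4:**
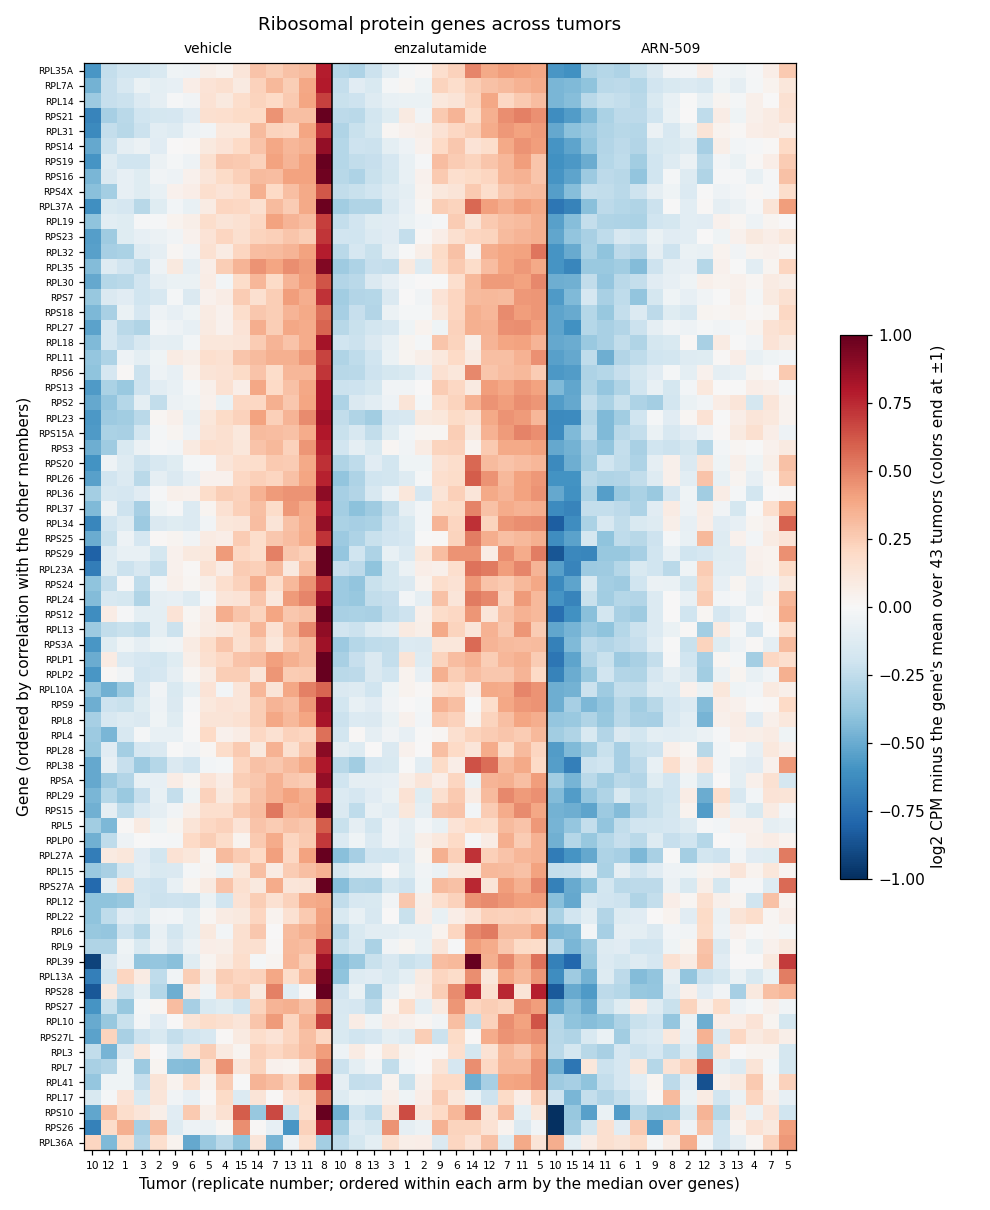
Log2 CPM of 72 of the 76 tested members minus the gene's mean over 43 tumors (color, ending at 1 in either direction). Rows are genes ordered by correlation with the other members and columns are tumors ordered within their arm; vehicle 8 is high and vehicle 10, ARN-509 10 and ARN-509 15 are low in nearly all rows, and the bottom rows, RPL36A last, do not follow.

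Single tumors stood apart in nearly all members at once. In vehicle 8, 75 of 76 members lay above their own mean over the tumors, with a median deviation of 0.78 on the log2 scale. In vehicle 10 only 1 did (median -0.49), in ARN-509 10 only 1 (-0.54) and in ARN-509 15 it was 0 (-0.49). Enzalutamide 5 had 75 above (0.39). Short genes outside the family stood apart in the same tumors. Their mean log2 level (shortest 25% minus longest 25% of genes) was 0.58 in vehicle 8 and -0.38 in vehicle 10. It was -0.29 in ARN-509 10, -0.26 in ARN-509 15 and 0.23 in enzalutamide 5. Vehicle 12 (members -0.22, short minus long 0.17) and vehicle 5 (0.09 and -0.16) were among tumors where the signs differed. The part of gene length in the members' deviations was not tested. The median deviation of an arm's tumors ran from -0.49 to 0.78 in vehicle, from -0.25 to 0.39 under enzalutamide and from -0.54 to 0.12 under ARN-509.

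The members are short, and GC content moved with their fold changes. Their transcripts had a median length of 687 bases (359 to 1526), against 1837 for all tested genes with a value, and a median GC content of 50.6% (42.3% to 62.8%), against 50.1%. The log2 fold change under ARN-509 fell with GC content among the members (Spearman rho = -0.62 over 76 genes) and among the 11949 other genes with a value (-0.40). Under enzalutamide rho was -0.25 among members and 0.20 among the others, and between the drugs 0.66 and 0.59. With length, rho under ARN-509 was 0.11 among members and 0.22 among the others. Genes of 1 set of libraries are not independent, and these values describe them.

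When the members were ranked by GC content and split into 3 parts after their values had been seen, 22 of the 25 highest in GC were lower under ARN-509 (median -0.31), 12 of the 25 in the middle (-0.24) and 7 of the 26 lowest (-0.20). Of all tested genes 16.1% were lower, and their share at each GC content was not counted. Among libraries, the mean log2 level of genes in the top 25% of GC content minus that of the bottom 25% had medians of -0.01 in vehicle, 0.11 under enzalutamide and -0.22 under ARN-509, and vehicle 8 (0.76) and enzalutamide 9 (0.77) were highest. The same difference for short minus long genes had medians of 0.03, 0.09 and -0.09. The part of these differences in the result was not tested apart from the fits described next.

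After the dependence on GC content and length was fitted and subtracted in every library, 40 members were lower under ARN-509 and 0 higher, with a median of -0.21, while 28.5% of all genes were called. Of the 42 members called before, 32 were among the 40, and RPLP2, RPL3 and RPS9 were not. RPL5 (-0.32 ± 0.07, edgeR adjusted p = 0.000537) and RPL11 (-0.34 ± 0.08, adjusted p = 0.00101) then had the smallest p, RPL36 was at -0.27 ± 0.08 and RPL36A no longer passed (adjusted p = 0.0679). With 3 other definitions of a gene's transcript, 33, 35 or 37 were lower and 1 higher, with medians from -0.17 to -0.16 and 28.3% to 28.7% of all genes called. Between the drugs the median went from 0.27 to 0.20, and to 0.13 with each of the other definitions.

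**Figure D5:**
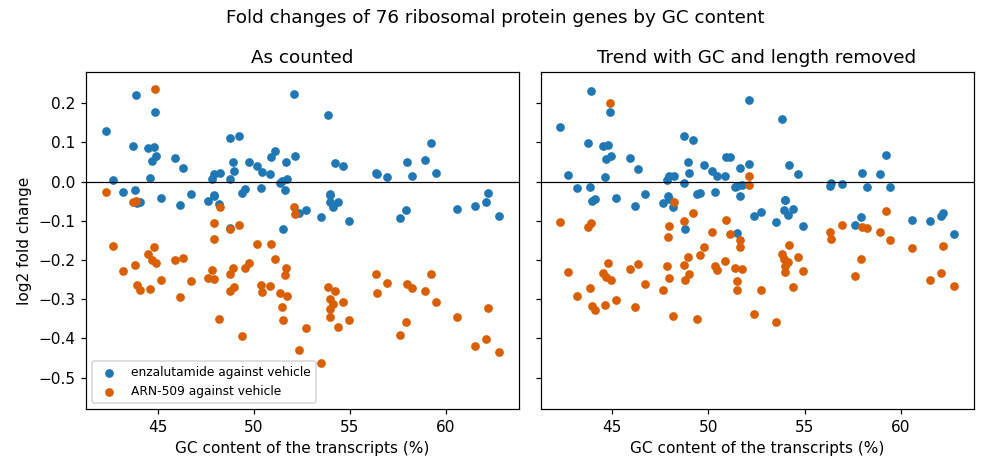
Log2 fold change against vehicle (vertical axis) of the 76 tested members by GC content of their transcripts (%), as counted (left) and after the dependence on GC content and length was subtracted in every library (right). On the left the ARN-509 points go down toward high GC content (Spearman rho = -0.62), and on the right most ARN-509 points still lie below 0, with a median of -0.21.

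Members were also counted by their annotated start. Under ARN-509, 24 of 41 tested members with a C and at least 5 pyrimidines at the start were lower (median -0.27), 10 of 21 with another annotated start (-0.24) and 7 of 14 with no entry (-0.26). Of all tested genes 16.1% were lower. Under enzalutamide the medians were 0.002, 0.02 and 0.002. The difference between these classes was not tested.

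Gene lists near this family were described by counts and medians, to be read beside the 30.8% of all tested genes called under ARN-509, 10.8% under enzalutamide and 26.8% between the drugs. Of 72 tested mitochondrial ribosomal protein genes, which serve the separate ribosome of mitochondria, 31 were lower and 2 higher under ARN-509 (median -0.20), 2 were higher under enzalutamide (median 0.02), and 35 were higher and 1 lower under enzalutamide than under ARN-509. Their correlation with the members' mean within arms had a median of 0.72. Of 20 translation factors and other genes whose mRNAs carry a TOP motif, 10 were lower and 1 higher under ARN-509 (median -0.16), and 1 was lower under enzalutamide. TPT1, a growth-linked protein with a TOP mRNA, fell by 0.63 ± 0.08 under ARN-509 (edgeR adjusted p = 8.64e-08) and by 0.39 ± 0.08 under enzalutamide (adjusted p = 0.000838). The initiation factor gene EIF3K fell by 0.35 ± 0.08 and the elongation factor genes EEF1G and EEF1B2 by 0.25 ± 0.07 and 0.31 ± 0.09 under ARN-509.

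Of 7 tested ribosomal protein genes outside the symbol rule, 1 was lower and 0 higher under ARN-509, and FAU, which encodes RPS30, did not pass (-0.21 ± 0.09, edgeR adjusted p = 0.077). Of 9 snoRNA host genes, several of whose transcripts also carry a TOP motif, SNHG6 fell by 0.31 ± 0.11 (adjusted p = 0.0316) under ARN-509. It did not pass without vehicle 8 (adjusted p = 0.0763), and 0 of the 9 passed under enzalutamide.

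Among 14 regulators of TOP mRNAs and ribosomal kinases, 3 fell and 2 rose under ARN-509, or 5 of 14 where 30.8% of all genes were called. The S6 kinase gene RPS6KB2 fell by 0.45 ± 0.09 (edgeR adjusted p = 0.000101), EIF4EBP1, an mTOR-controlled repressor of initiation, by 0.50 ± 0.11 (adjusted p = 0.000439) and MLST8, an mTOR partner, by 0.25 ± 0.08. TIA1, which can bind TOP mRNAs, rose by 0.38 ± 0.09 and RPS6KB1, the other S6 kinase gene, by 0.26 ± 0.07. Under enzalutamide TIAL1 fell by 0.16 ± 0.05 (adjusted p = 0.0244) and LARP4 by 0.32 ± 0.11 (adjusted p = 0.0379), 2 of 14 where 10.8% of all genes were called. TIAL1 did not pass with the GC and length dependence removed, nor LARP4 without vehicle 1 (adjusted p = 0.0932). Of 9 tested genes of the p53 and MDM2 response to ribosomal stress, ZMAT3 rose by 0.46 ± 0.15 and GLTSCR2, a nucleolar protein, fell by 0.27 ± 0.08 under ARN-509, which is 2 of 9 beside the same 30.8%. MDM2 did not pass (0.11 ± 0.04, adjusted p = 0.0509), and 0 passed under enzalutamide.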

How the data were processed

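The authors deposited 1 table of raw read counts per gene for 44 tumors. Libraries were made with a TruSeq RNA v2 kit, per the labels' protocols, and the submitters' processing notes name the hg19 build, HTSeq 0.6.1, Picard 1.77, TopHat2 2.1.0 and bcl2fastq 1.8.4. For strand, mouse reads and multi-mapped reads, the handling is not stated in the labels. Arms and replicate numbers came from the sample titles, and 0 columns were unmatched. No pair of libraries held identical values.

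Genes kept by filterByExpr entered 1 quasi-likelihood model of 43 libraries with TMM scaling and arm as the term (edgeR 4.0.16 in R 4.3.3), with robust estimation and a Benjamini-Hochberg threshold of 0.05 over all tested genes. CPM are relative to the TMM-scaled total. The SE was derived from the log2 fold change and its F statistic, and 95% intervals from t quantiles. DESeq2 1.42.0 and limma 3.58.1 were alternatives. The edgeR fit was also run on simulated counts for the comparison of each drug with vehicle, and the outcome is not given here. Genes varied independently in that simulation, so it cannot speak to calls among members that move together.

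The members, lists and rule for named genes (the 8 smallest p per comparison, genes of known roles, extremes of level and correlation, and up to 4 per list) were chosen with earlier results of these data known. RPL15, the members with the most pseudogenes and those at the ends of a range were named after their values were seen. Length and GC content are medians over a gene's protein-coding transcripts in GENCODE v29, a GRCh38 annotation matched by symbol with values for 88.9% of tested genes. This was the 4th definition tried, settled after member lengths and the relation with GC content had been seen: the other 3 (the longest principal transcript, the principal transcript of median length, and the oldest RefSeq match) gave some members up to 7686 bases. Counts of members called are reported for all 4 where the trend is removed, and fold changes of single genes only for the definition used. Some named genes are not reported here. P-values measure the spread between these tumors.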

Additional observations from a re-analysis of the deposited data

Results flagged for a closer look

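The library enzalutamide 4, which entered no comparison, gave RPS19, a small-subunit protein, 1175 of its 80142 counts, that is 14660 CPM of the library total, above the highest vehicle tumor at 5858 CPM. The members as a whole held 3.16% of its counts, below each of the other 43 libraries, and 12 members had no count.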

How the results depend on the processing

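The median log2 fold change of the members kept its direction under ARN-509 and between the drugs in every alternative run. Under enzalutamide it lay near 0 and took either sign. The number called moved by over 1.5 times in these: under enzalutamide, 1 with library totals in place of 0; under ARN-509, 19 with all 44 libraries in place of 42; between the drugs, 5 with all 44 libraries in place of 42, 11 with the trend with GC content and length removed, 11 when that trend was fitted without the members, and 2, 4 and 5 with the longest principal, the median-length principal and the oldest RefSeq transcript. The definition used in the report thus kept the most calls of the 4 between the drugs. On the same genes with no trend removed, 43 were called, with 27.9% of all genes called. With all 44 libraries, 26% of all tested genes were called under ARN-509 and 20.1% between the drugs. In that fit the 19 and 5 of 76 members were thus no larger a share than that of all genes. The members' medians in it were -0.27 under ARN-509 and 0.21 between the drugs. Leaving out 1 tumor gave 28 to 60 calls under ARN-509, 21 to 57 between the drugs and 0 under enzalutamide, and medians of -0.30 to -0.19, 0.24 to 0.30 and -0.02 to 0.07. The share of all genes called is not given for each of these fits. Tumors seldom correlated best with the tumor of their own number in another arm. For vehicle and ARN-509, same-numbered tumors had correlations from -0.51 to 0.72 (median 0.05). Of these 15, 6 were over 0.1 and 0 were best with their own number. It was 2 of 13 for vehicle and enzalutamide (median 0.006) and 1 of 13 for enzalutamide and ARN-509 (0.03). With a replicate block, 43 members were called under ARN-509 (30.2% of all genes), 47 between the drugs (24.3%) and 0 under enzalutamide (8.85%). Of 13908 values of the 76 members under alternatives, 12959 kept their side of the threshold, 677 lost the call, 272 gained it and 0 reversed. The log2 fold change of TIAL1 under enzalutamide went to 0.0401 with all 44 libraries. The causes of these moves were not tested.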
